A study of Mus musculus with 16 samples.

Results

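Expression of 9 osteoclast genes (Mmp9, Ctsk, Acp5, Atp6v0d2, Dcstamp, Ocstamp, Nfatc1, Tnfrsf11a and Calcr) was examined in 16 mouse rhabdoid tumors, and whether high Mmp9 and Ctsk went together with the other members was asked. The 9 genes were chosen by their known role in osteoclasts and by measured values, the high TPM and counts of Mmp9 and Ctsk in tumors outside the brain. They are 9 of the 24982 genes counted, of which 21854 had at least 1 count in these tumors, the 9 included. Every tumor was a primary tumor of a different Smarcb1flox/flox;R26-CreERT2 mouse, of a mixed 129/SV and C57BL/6 background. The Cre is expressed from a ubiquitous promoter and was activated in the whole embryo by tamoxifen given to the mother, so that the deletion of Smarcb1 is not restricted to a lineage and is shared by all groups. No normal tissue and no wild-type mouse was analysed here. The groups were 5 intra-CNS tumors, located within the brain (tamoxifen at E6 in all 5, age 30 to 180 days), 6 intracranial extra-CNS tumors, located in the skull but outside the brain parenchyma (1 at E6, 1 at E7 and 4 at E8, 52 to 170 days), and 5 extracranial tumors of the back, jaw, nose and mouth (1 at E6 and 4 at E8, 80 to 210 days). Intra-CNS tumors are called Shh in the study and all others Myc.

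Osteoclasts are multinucleated cells that resorb bone. They form when precursors of the monocyte and macrophage lineage receive Csf1 and the ligand Rankl (Tnfsf11), which binds the receptor Rank (Tnfrsf11a). The factor Nfatc1 then switches on the genes of cell fusion, proton secretion and matrix digestion. Several of these genes are not exclusive to osteoclasts: Mmp9 and Acp5 are also made by other myeloid cells, and Ctsk by fibroblasts.

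Total counts per tumor ranged from 17889968 to 110177889. Smarcb1, the deleted gene, was measured at 3.99 to 58.1 TPM (counts scaled for gene length and depth) within the brain and at 6.48 to 43.7 TPM outside it, and these bulk samples hold undeleted cells of the host to an unknown share. Myc was at 9.31 to 28.8 TPM in intra-CNS tumors and at 87.0 to 225 TPM in 10 of the 11 others. The exception was R26P115, an intracranial extra-CNS tumor with 8.73 TPM of Myc, and the calls without it are given for the slopes. The intra-CNS tumor 29048 held the highest summed level of 6 oligodendrocyte markers (6295 TPM) of all tumors. The nose tumor 43990A is extracranial in the sample labels and intracranial in the list of mice of the study, and was analysed as extracranial.

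The promoters of Ctsk, Acp5 and Calcr are shown first, because Ctsk and Acp5 were highest in the same 3 tumors and Calcr was not. The promoter table of RefSeq (GRCm38.p6) held 7 start sites for 4 of the 9 members (Ctsk, Acp5, Calcr and Tnfrsf11a), each as the 250 bases before and the 50 bases after a start. Both strands were searched for the letters of 4 motifs of factors known from osteoclasts, with no mismatch: the AP-1 site TGANTCA, the NFAT core GGAAA, the E-box CACGTG bound by Mitf, and GAGGAA for PU.1 (Spi1). GAGGAA and GGAAA can overlap. One window each of Ctsk (chr3:95498960-95499259, plus strand), Acp5 (chr9:22130549-22130848, minus strand) and Calcr (chr6:3763574-3763873, minus strand) follows, with motif letters in capitals.
Ctsk: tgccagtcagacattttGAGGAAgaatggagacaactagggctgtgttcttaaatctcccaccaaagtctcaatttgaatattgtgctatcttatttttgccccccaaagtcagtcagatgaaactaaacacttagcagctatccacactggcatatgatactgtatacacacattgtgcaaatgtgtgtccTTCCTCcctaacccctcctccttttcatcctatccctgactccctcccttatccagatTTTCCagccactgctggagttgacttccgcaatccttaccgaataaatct
Acp5: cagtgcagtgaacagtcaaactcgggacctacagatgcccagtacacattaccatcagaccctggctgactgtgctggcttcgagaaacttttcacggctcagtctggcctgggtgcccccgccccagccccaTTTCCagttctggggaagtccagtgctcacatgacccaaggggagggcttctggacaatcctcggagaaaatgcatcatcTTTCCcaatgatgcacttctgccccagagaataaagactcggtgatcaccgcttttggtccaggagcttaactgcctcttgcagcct
Calcr: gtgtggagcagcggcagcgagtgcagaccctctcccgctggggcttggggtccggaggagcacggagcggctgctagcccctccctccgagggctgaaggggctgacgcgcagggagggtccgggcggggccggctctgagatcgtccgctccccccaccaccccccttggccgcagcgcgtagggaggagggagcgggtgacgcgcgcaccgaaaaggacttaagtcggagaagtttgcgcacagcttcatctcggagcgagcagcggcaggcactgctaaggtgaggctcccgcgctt
The Ctsk window held the PU.1 letters 2 times, with the first base at positions -233 and -58 from the start, and the NFAT core 1 time. The Acp5 window held the NFAT core 2 times, at -117 and -37, and the Calcr window held none of the 4 motifs. The other Calcr window held the NFAT core 1 time, at -65, and the other 2 Acp5 windows held it 1 time each, so that its presence did not separate these genes. Of the 7 windows, 5 held the NFAT core, 1 held the PU.1 letters and 0 held the AP-1 site or the E-box. Among all 32851 promoters of the table these letters occurred in 61.3%, 28.3%, 7.81% and 7.15%, so that the NFAT core was common everywhere. A match is a description of the sequence and not a binding site.

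The secreted enzymes gave the highest levels of the members. Mmp9 (chr2:164940780-164955850, GRCm38), a gelatinase, was at 8412 TPM in the mouth tumor 43998A, 1129.8 TPM in the jaw tumor R26P123, 446 TPM in the back tumor 43825B, 285 TPM in the jaw tumor 43987A and 17.3 TPM in the nose tumor 43990A. In the 6 intracranial extra-CNS tumors its lowest value was 2.09 TPM (R26P115), its median 16.6 TPM and its highest 137 TPM (29225D). The 5 intra-CNS tumors had 1.58, 1.57, 1.19, 2.72 and 0.209 TPM. All tumors outside the brain except R26P115 were thus above every tumor within it, and the extracranial tumors alone ran from 17.3 to 8412 TPM.

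Ctsk (chr3:95499256-95509362), cathepsin K, the collagen-degrading protease of the resorption pit, followed the same order at its top. It was at 11043 TPM in 43998A, 1406 TPM in R26P123 and 519 TPM in 43825B, but at only 18.7 TPM in 43987A and 27.4 TPM in 43990A. The intracranial extra-CNS tumors ranged from 2.22 TPM (29941C) through a median of 9.84 TPM to 63.2 TPM (R26P170), and the intra-CNS tumors had 5.53, 2.44, 4.98, 2.45 and 3.56 TPM. The jaw tumor 43987A therefore combined high Mmp9 with a Ctsk level inside the intracranial range. In TPM, Mmp9 was 0.762 times Ctsk in 43998A, 0.804 times in R26P123 and 0.859 times in 43825B. It was 15.3 times Ctsk in 43987A and 13.5 times in 29225D, but 0.629 times in 43990A and 0.573 times in R26P170. The remaining tumors outside the brain ran from 0.219 times (R26P115) to 3.07 times (29941C), and the intra-CNS tumors from 0.0587 to 1.11 times. A ratio near that of the first 3 tumors was thus not particular to them.

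Acp5 (chr9:22126727-22135711), the tartrate-resistant acid phosphatase used as a histological stain for osteoclasts, was at 9967, 1175 and 550.2 TPM in 43998A, R26P123 and 43825B, and at 28.5 and 65.0 TPM in 43987A and 43990A. It had 27.5 to 164 TPM (median 67.1) in the intracranial extra-CNS tumors and 2.52, 2.09, 5.67, 5.76 and 0.479 TPM in the intra-CNS tumors. Every tumor outside the brain, R26P115 included, lay above every tumor within it. The ratio of Acp5 to Ctsk was 0.903, 0.836 and 1.06 in 43998A, R26P123 and 43825B and between 1.40 and 21.4 in the other 8 tumors outside the brain.

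Mmp9, Ctsk and Acp5 together took 2.58% of all counts of 43998A (95% Wilson interval 2.58 to 2.59). Their share was 0.313% in R26P123 (0.311 to 0.314), 0.137% in 43825B (0.136 to 0.139) and 0.0431% in 43987A (0.0426 to 0.0437). The other 7 tumors outside the brain had 0.00274% to 0.0213%, and the intra-CNS tumors 0.000261% to 0.000831%. The intervals and the floors given below cover counting error only, so that the steps between tumors are far wider than the error of counting. In bulk RNA, fewer cells of a type and less RNA per cell cannot be told apart.

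**Figure D1:**
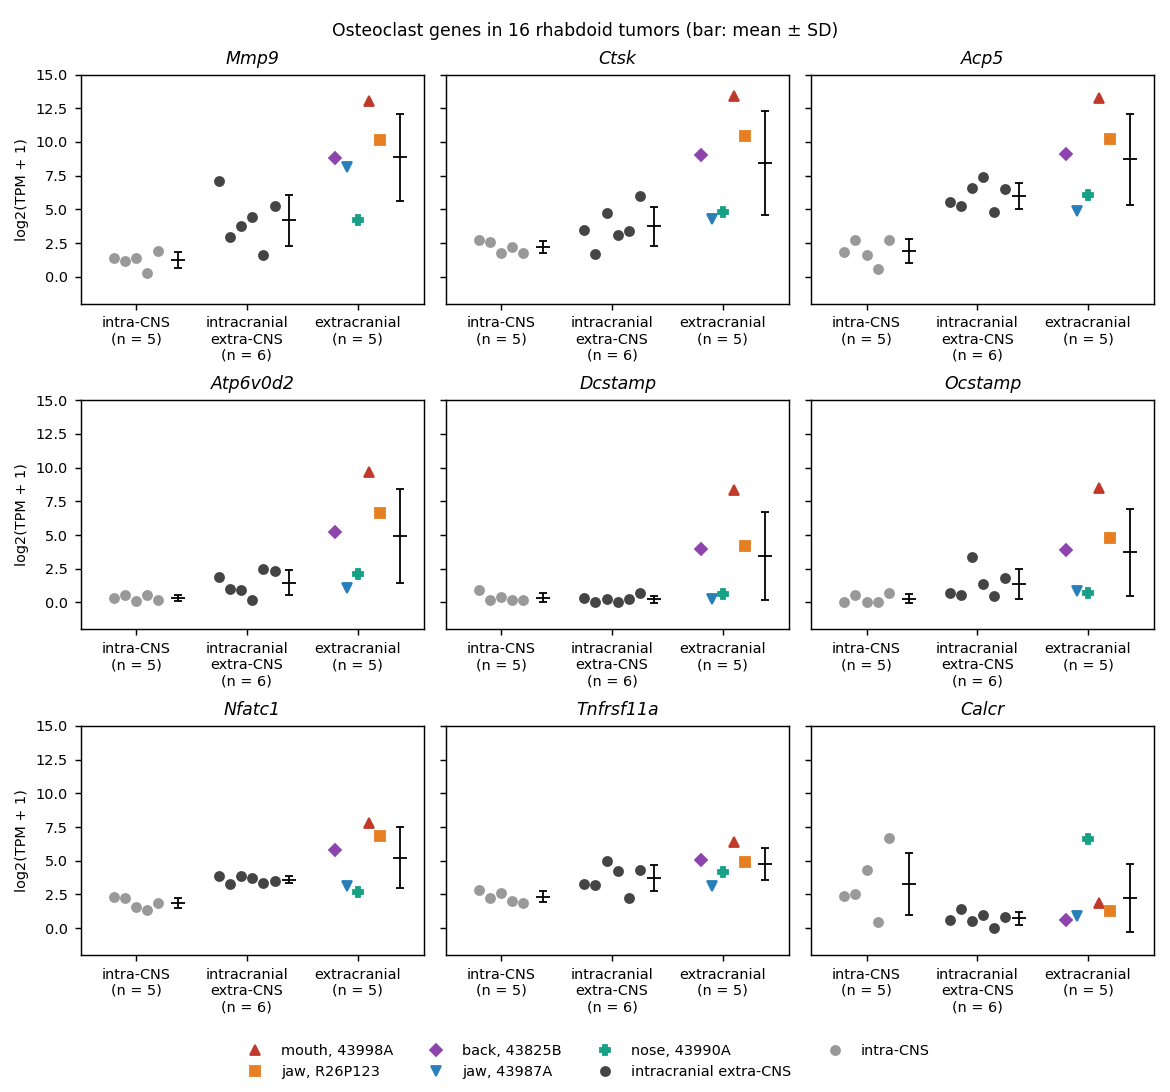
Level of each of the 9 members in log2(TPM + 1) by group, with 1 point per tumor, a marker of its own for each extracranial tumor, and a bar for the mean ± SD. For Mmp9 the group means were 1.21 (intra-CNS), 4.18 (intracranial extra-CNS) and 8.87 (extracranial), and the highest points of Calcr are 1 intra-CNS tumor (99.7 TPM) and 1 extracranial tumor (99.1 TPM).

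The pump and fusion genes were low in most tumors and high in few. Atp6v0d2 (chr4:19876841-19922605), the d2 subunit of the vacuolar proton pump, was at 822, 99.2 and 37.2 TPM in 43998A, R26P123 and 43825B, and at 1.09 and 3.32 TPM in 43987A and 43990A. It reached at most 4.55 TPM (R26P115) in intracranial extra-CNS tumors, with a median of 1.87 TPM, and 0.271, 0.0644, 0.452, 0.133 and 0.442 TPM in intra-CNS tumors. Its ratio to Ctsk was 0.0744 in 43998A, 0.0706 in R26P123 and 0.0716 in 43825B, so that these 3 tumors held both genes in nearly the same proportion over a 21-fold range of Ctsk. Similar ratios also occurred at lower Ctsk, with 0.0641 in R26P170 and 0.0584 in 43987A. The 8 other tumors outside the brain ran from 0.0179 (43992A) to 0.476 (R26P115), and the intra-CNS tumors from 0.0264 to 0.124.

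Dcstamp (chr15:39745930-39760938), a membrane protein needed for the fusion of osteoclast precursors, was at 321, 17.3 and 14.5 TPM in 43998A, R26P123 and 43825B. All other tumors had less than 1 TPM: 0.196 TPM in 43987A, 0.533 TPM in 43990A, up to 0.618 TPM in intracranial extra-CNS tumors and 0.868, 0.314, 0.114, 0.162 and 0.108 TPM in intra-CNS tumors. No count was found in 43992A, which allows up to 0.151 CPM (counts scaled for depth alone), and none in 29941C, which allows up to 0.0272 CPM. Below the 3 tumors of highest level, Dcstamp outside the brain was not above its level within it.

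Ocstamp (chr2:165393760-165400405), a second fusion gene, was at 355, 25.8 and 13.8 TPM in the same 3 tumors. It was at 0.778 and 0.597 TPM in 43987A and 43990A, at 0.372 to 9.24 TPM (median 1.07) in intracranial extra-CNS tumors and at 0.0434, 0.0412, 0.479, 0.623 and 0 TPM in intra-CNS tumors. The highest intracranial value belonged to 43989C. Its groups overlapped, with 7 of the 11 tumors outside the brain above every intra-CNS tumor.

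The transcription factor and the receptor Rank varied less than the enzymes. Nfatc1 (chr18:80606205-80713071), the factor that drives osteoclast differentiation and that other cell types also use, was at 219, 113 and 55.0 TPM in 43998A, R26P123 and 43825B. It was at 7.60 and 5.37 TPM in 43987A and 43990A, at 8.57 to 13.5 TPM in intracranial extra-CNS tumors and at 3.85, 2.02, 3.60, 2.62 and 1.55 TPM in intra-CNS tumors. All 11 tumors outside the brain were above those within it, and the 6 intracranial extra-CNS tumors lay close together.

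Tnfrsf11a (chr1:105780718-105847981), which encodes Rank, was at 81.4, 29.0 and 31.7 TPM in 43998A, R26P123 and 43825B, and at 7.88 and 17.1 TPM in 43987A and 43990A. The intracranial extra-CNS tumors had 3.68 to 29.8 TPM (median 13.2) and the intra-CNS tumors 6.12, 5.23, 3.67, 2.67 and 3.02 TPM. Here the intracranial tumor 43989C, at 29.8 TPM, stood level with 43825B and R26P123, and R26P115 lay within the intra-CNS range.

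Calcr (chr6:3685680-3764714), the calcitonin receptor and a marker of mature osteoclasts that neurons also express, behaved differently from the others. It was at 99.1 TPM in the nose tumor 43990A and at 0.510, 0.826, 2.71 and 1.40 TPM in 43825B, 43987A, 43998A and R26P123. Intracranial extra-CNS tumors had at most 1.70 TPM, with no count in R26P115 (allowing up to 0.113 CPM), and intra-CNS tumors 4.22, 18.6, 4.92, 99.7 and 0.368 TPM. Its highest levels were therefore in 1 nose tumor and 1 brain tumor in which Ctsk was at 27.4 and 2.45 TPM.

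The contrast of tumors outside the brain with intra-CNS tumors chose the members, so its values are a description with no test. All 5 intra-CNS tumors had tamoxifen at E6 and 8 of the 11 others at E8, so that location and day of tamoxifen largely went together in it. The log2 fold changes (standard errors) were 9.92 (2.51) for Mmp9, 8.86 (2.60) for Ctsk, 8.95 (2.17) for Acp5, 8.87 (2.52) for Atp6v0d2, 7.25 (2.75) for Dcstamp and 7.80 (2.36) for Ocstamp. They were 4.50 (1.08) for Nfatc1, 3.02 (0.65) for Tnfrsf11a and -0.92 (1.48) for Calcr. Without 43998A the log2 fold change was 7.65 for Mmp9, 6.26 for Ctsk and 3.91 for Dcstamp. Every tumor outside was above every intra-CNS tumor for 2 of 9 members (2.44% of all genes) and at least 10 of the 11 for 6 of 9 (5.21%).

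Among the 11 tumors outside the brain, the 9 members had the same 3 highest tumors for 7 genes: 43998A, R26P123 and 43825B. The exceptions were Calcr (43990A, 43998A and 29941C) and Tnfrsf11a (43998A, 43825B and 43989C). The mouth tumor 43998A was highest for 8 of 9 members. These 3 tumors come from the mouth, the jaw and the back, 2 of them with tamoxifen at E8 and 1 at E6, and they were not set against the rest as a group, since they are named here for their levels.

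Over the 11 tumors, Ctsk in log2(TPM + 1) had a Pearson correlation of 0.86 with Mmp9, 0.93 with Acp5, 0.95 with Atp6v0d2, 0.96 with Dcstamp, 0.93 with Ocstamp, 0.93 with Nfatc1 and 0.82 with Tnfrsf11a. Spearman's rho was 0.75, 0.72, 0.77, 0.93, 0.81, 0.58 and 0.76 in the same order. For Calcr the correlation was 0.05 and rho 0.25. Without 43998A and R26P123, the tumors farthest from the median of Ctsk, the correlation was still 0.89 for Dcstamp and 0.82 for Atp6v0d2 but 0.60 for Mmp9. These correlations describe 11 tumors that differ in site, age and depth.

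The correlations rested largely on the 3 tumors of highest level. In the other 8 tumors, an alternative chosen after seeing the data, Ctsk had a correlation of 0.30 with Mmp9, 0.30 with Acp5, 0.42 with Atp6v0d2, 0.48 with Ocstamp, 0.51 with Tnfrsf11a and -0.09 with Nfatc1. Dcstamp alone stayed high, at 0.86, but all its values there were under 1 TPM. The correlation of Mmp9 with 6 members other than Ctsk and Calcr, 0.68 to 0.85 over 11 tumors, was between -0.14 and 0.20 in these 8, where Mmp9 ran from 2.09 to 285 TPM. Spearman's rho with Mmp9 was there 0.47 for Dcstamp, 0.45 for Ocstamp and 0.36 for Ctsk, and between -0.095 and 0.14 for Acp5, Nfatc1, Atp6v0d2 and Tnfrsf11a.

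**Figure D2:**
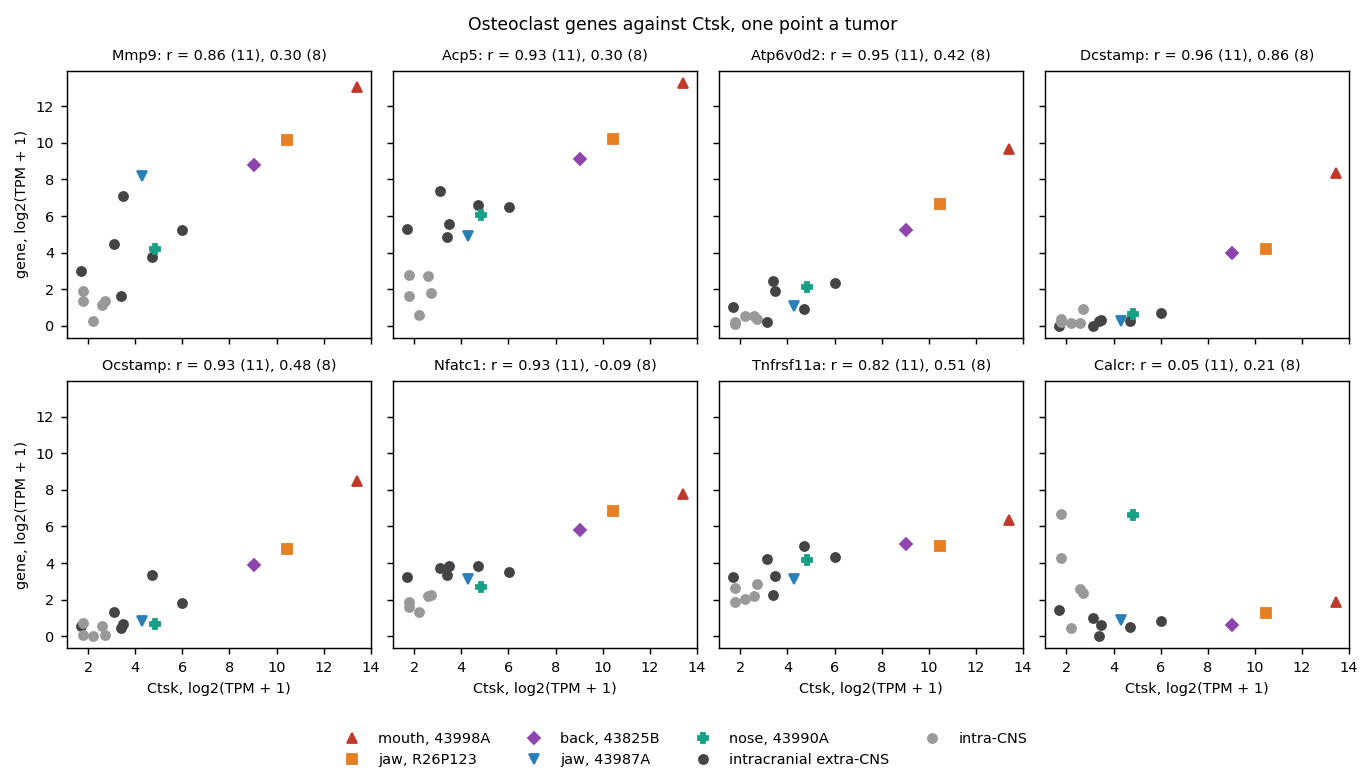
Level of each other member against Ctsk, both in log2(TPM + 1), with 1 point per tumor, a marker of its own for each extracranial tumor, and the correlation over 11 and over 8 tumors in each title. The 43998A, R26P123 and 43825B points run up a diagonal in the panels other than Calcr and Tnfrsf11a, where R26P123 (29.0 TPM of Tnfrsf11a) lies below 43825B (31.7 TPM), while the remaining tumors form a cloud at low Ctsk.

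The question was then put to a test across all genes: the slope of each gene's counts on log2(TPM + 1) of Ctsk in the 11 tumors, in edgeR's quasi-likelihood test. A slope of 1 means that the gene doubles as Ctsk doubles. Mmp9 and Ctsk both served to choose the members, so the slope of each on the other is a description with no test. With Benjamini-Hochberg adjustment over 21260 genes, 5 of the 7 members other than these had a slope above 0 at an adjusted p under 0.05. Of all genes 0.757% had such a slope above 0, 0.0235% one below it and 0.781% either. The slope was 1.15 ± 0.08 (SE) for Dcstamp (adjusted p = 0.000111), 0.83 ± 0.09 for Atp6v0d2 (0.00168), 0.77 ± 0.09 for Ocstamp (0.00374), 0.66 ± 0.07 for Acp5 (0.00205) and 0.44 ± 0.05 for Nfatc1 (0.00205), and that of Mmp9 was 0.71 ± 0.13. Tnfrsf11a (slope 0.26, adjusted p = 0.0523) and Calcr (-0.23, 0.899) did not pass, whereas by DESeq2's Wald test Tnfrsf11a passed (0.26, 0.00298) and 6 of these 7 members did. DESeq2 passed 1182 of all genes, 521 of them with a slope above 0, where edgeR passed 166 and 161. The members were chosen with earlier results known, and every slope uses the same 11 tumors.

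Dcstamp, Atp6v0d2, Acp5 and Nfatc1 passed in all 11 fits that each left out 1 tumor. Ocstamp was lost only without 43998A (adjusted p = 0.164). Without R26P115 the same 5 of 7 members passed, and 76 genes in place of 166. With the site of the tumor as a further covariate only Dcstamp passed (slope 1.11, adjusted p = 0.0265), although the slopes of Ocstamp (0.99, 0.0584), Atp6v0d2 (0.91, 0.275), Acp5 (0.80, 0.158) and Nfatc1 (0.53, 0.147) were no smaller than without it. Without 43998A, R26P123 and 43825B no member passed, nor did the slope of Nfatc1 stay above 0 (-0.03). In that last fit 1 gene of all tested passed.

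With Mmp9 as the measure, 5 of the 7 members had a slope above 0 that passed at an adjusted p under 0.05, as did 0.287% of all genes, and 0.621% passed in either direction. The slopes were 0.68 ± 0.10 for Acp5 (adjusted p = 0.0185), 1.09 ± 0.16 for Dcstamp (0.0185), 0.43 ± 0.07 for Nfatc1 (0.0246), 0.72 ± 0.13 for Atp6v0d2 (0.0452) and 0.69 ± 0.13 for Ocstamp (0.0455), and that of Ctsk was 0.92 ± 0.12. Tnfrsf11a (0.23, adjusted p = 0.130) and Calcr (-0.37, 0.643) did not pass. Without 43998A none of the 5 passed, with adjusted p from 0.112 (Nfatc1) to 0.337 (Ocstamp). Without R26P115, 4 of 7 passed (all of the 5 but Ocstamp), and 31 genes in place of 132. None passed with site as a covariate or by limma on log2(TPM + 1). The slopes on Mmp9 thus passed only with the mouth tumor in the fit, and those of Atp6v0d2 and Ocstamp passed in only 2 and 1 of the 11 fits with a single tumor omitted.

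**Figure D3:**
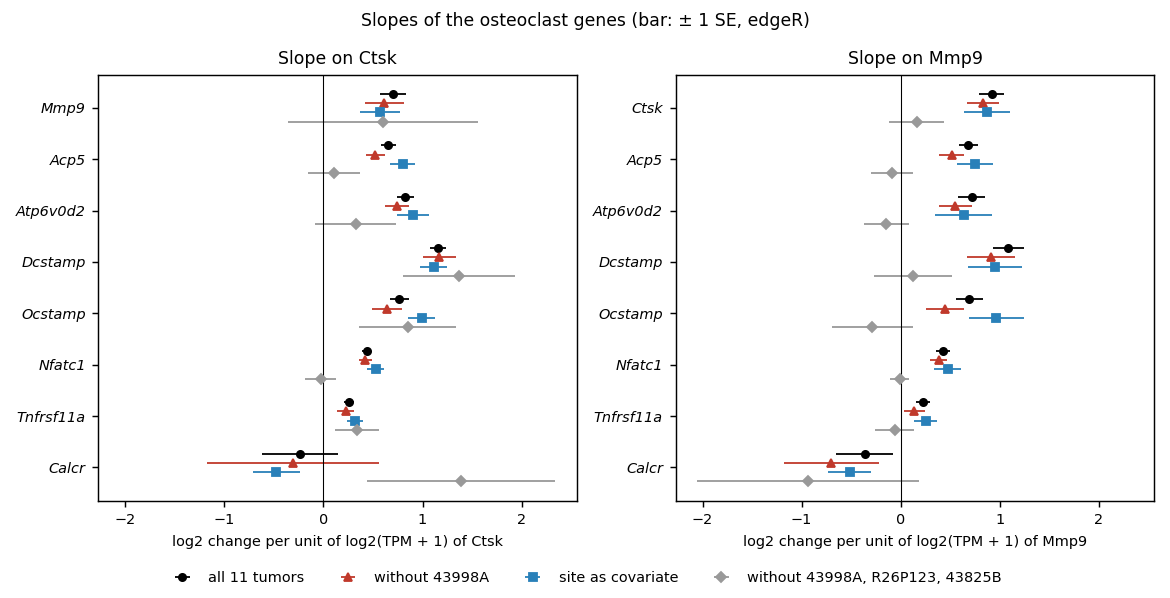
Slope of each member's counts on log2(TPM + 1) of Ctsk and of Mmp9 over the 11 tumors outside the brain (points, with bars of ± 1 SE), with all tumors, without 43998A, with site as covariate and without 43998A, R26P123 and 43825B. With all tumors Dcstamp has the steepest slope on both (1.15 and 1.09) and Calcr is the 1 member below 0 (-0.23 and -0.37).

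The genes most like Ctsk were looked for among 15022 other genes with a mean of at least 1 TPM in the 11 tumors. A correlation above 0.8 with Ctsk was found for 145 genes (0.965%). A gene such as Dcstamp, under 1 TPM in the other 8 tumors, reached that mean only through 43998A, R26P123 and 43825B, the tumors of highest Ctsk, so that its correlation follows from how it entered and is a description. The 10 genes of highest correlation were Slc9b2 (0.98), Tm4sf19 (0.96), Dcstamp, Atp6v0d2, Prdm1, Plekhn1, Zc3h3, Agap1, Abcb4 and Oscar (0.94). Slc9b2, a sodium and proton exchanger known from osteoclasts, was at 356, 65.9 and 15.7 TPM in 43998A, R26P123 and 43825B and at most 3.30 TPM in the other 8.

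With Mmp9, 127 genes (0.845%) had a correlation above 0.8. Among the 10 most alike were Tnfsf11 (0.93), Plxnd1, Slc16a3, Nfkbia, Tspyl1, Bdkrb2, Aqp5, Arl8b and Epn2 (0.89). Tnfsf11, the gene of Rankl, was at 67.3 TPM in 43998A, 11.9 TPM in R26P123 and 4.27 TPM in 43825B, and from 0.0407 TPM (R26P115) to 2.70 TPM (43987A) in the other 8. The water channel gene Aqp5 was at 838, 819 and 782 TPM in these 3 tumors and at most 273 TPM in the other 8, and was thus nearly level among tumors that differed 19-fold in Mmp9.

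**Figure D4:**
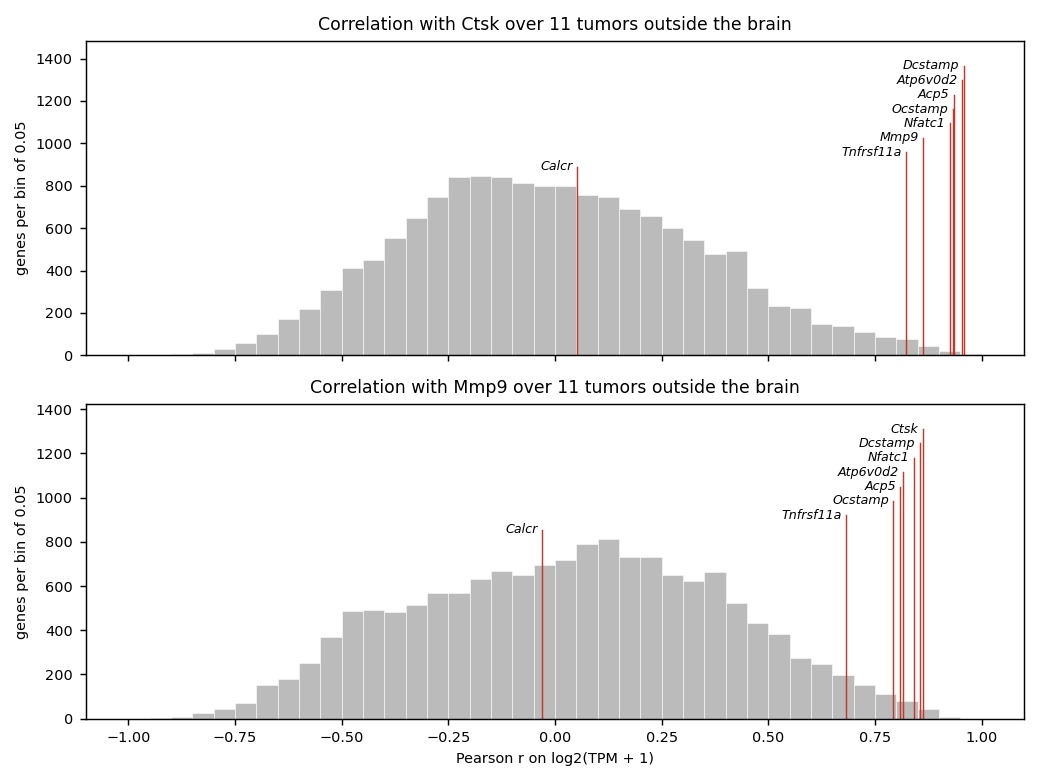
Distribution of the correlation with Ctsk and with Mmp9 over 15022 genes, with the members marked. Most genes lie around 0 (median -0.02 for Ctsk and 0.05 for Mmp9), and members other than Calcr lie at the right end.

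Beside the 9 members, 73 further genes of the osteoclast pathway were listed by role. Outside the brain 44 of 73 passed as higher and 0 as lower than within it, where 13.1% of all genes passed as higher and 12.9% as lower (median log2 fold change 2.32, against 0.15 over all genes). In this contrast location largely went together with the day of tamoxifen. Higher were 6 of 8 ligands and growth factors, 11 of 15 receptors and adaptors, 11 of 15 transcription factors, 9 of 11 genes of fusion and attachment and 4 of 8 inhibitors of differentiation. Of 16 genes of acid secretion and matrix digestion 3 were higher, a share near that of all genes. Tnfsf11 had a log2 fold change of 5.91 (adjusted p = 0.0176 in edgeR), Csf1 of 2.86 (0.00650), its receptor gene Csf1r of 2.24 (0.00383), the adaptor gene Tyrobp of 2.81 (0.00124), the integrin gene Itgb3 of 5.39 (0.00542) and the pump subunit gene Tcirg1 of 3.13 (0.00161). The decoy receptor gene Tnfrsf11b (1.12, adjusted p = 0.147), Il34 (2.13, 0.151), Oscar (4.09, 0.0928), the chloride channel gene Clcn7 (0.72) and the carbonic anhydrase gene Car2 (2.32, 0.235) did not pass.

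Many of these genes also belong to macrophages and neutrophils, whose markers moved in the same contrast. Of 14 macrophage markers 13 were higher outside the brain, among them Adgre1 (log2 fold change 3.03) and Cd68 (3.29), and of 14 neutrophil markers 10 were higher and 1 lower, with 6.82 for S100a8 and 7.20 for S100a9 but 2.17 for Mpo, which did not pass. The summed level of the macrophage markers was 962 to 1734 TPM within the brain and 2051 to 16728 TPM outside it, and that of the neutrophil markers 12.2 to 24.8 and 4.25 to 943 TPM. Elane and Cxcr1 were at 0 in every intra-CNS tumor. Of 9 fibroblast markers 8 were higher outside, at a summed 162 to 653 TPM within and 882 to 11668 TPM outside, highest in 43998A. Markers of further cell types moved too: 5 of 7 T and NK cell markers, 3 of 8 of skeletal muscle and 2 of 6 of endothelium were higher outside, and 4 of 7 neuron, 5 of 6 oligodendrocyte and 2 of 5 erythroid markers lower. Of 8 microglia markers 1 was higher and 2 were lower, and 1 of the muscle markers was lower. The part of these cell types in the higher level of the members was not tested.

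Among the tumors outside the brain, few of these markers, as few of all genes, had a slope on Ctsk or Mmp9 that passed. On Ctsk, 1 of 14 macrophage markers (Cd68, slope 0.25), 0 of 14 neutrophil markers and 0 of 9 fibroblast markers had a slope that passed, and on Mmp9 0 of 14, 0 of 14 and 0 of 9. The share of all genes was 0.781% on Ctsk and 0.621% on Mmp9. Counts of 0 in lists this short therefore do not set these markers apart from other genes. The mouth tumor 43998A, the highest for 8 members, was the lowest of the 11 for 9 of 14 macrophage markers and the lowest, ties at 0 included, for 11 of 14 neutrophil markers. It had 10.4 TPM of Adgre1, where the other 10 had 21.1 to 181, and 155 TPM of C1qa, where they had 170 to 2248. S100a8 and S100a9 were at 0.566 and 0.988 TPM in it and at 377 and 522 TPM in R26P123.

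The same tumor was highest for many other osteoclast genes. In 43998A Cd68 was at 1563 TPM, Csf1r at 618, Tyrobp at 2032, Oscar at 326, Itgb3 at 193, Tcirg1 at 792, Clcn7 at 229.8 and Siglec15 at 66.8 TPM, each the highest of the 11. The receptor gene Trem2 (24.2 TPM) was at its lowest of the 11 there. Inhibitors of differentiation went both ways: Irf8, a repressor of osteoclast formation, was at 6.55 TPM, the lowest of the 11, and Nfkbia (497 TPM) and Rcan1 (508 TPM) were at their highest. In 43825B, by contrast, members were high together with macrophage markers, of which it was highest for 11 of 14, and with 68.4 TPM of Irf8.

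**Figure D5:**
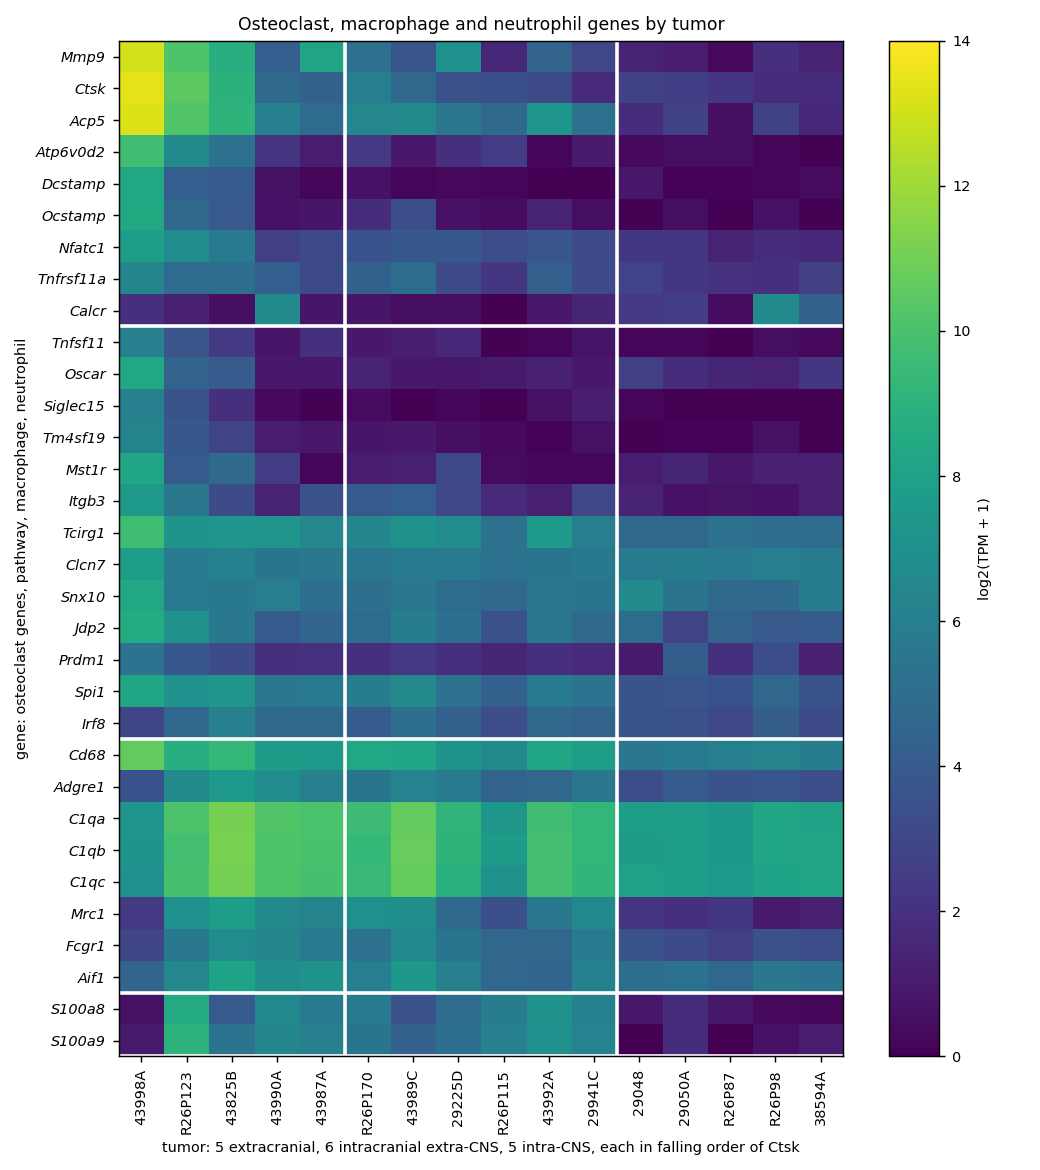
Levels in log2(TPM + 1), shown by colour, of the 9 members and of chosen pathway, macrophage and neutrophil genes (rows) in the 16 tumors (columns, by group and in falling order of Ctsk). Members other than Calcr are highest in 43998A, where Adgre1 (10.4 TPM), C1qa (155 TPM), Irf8 (6.55 TPM) and S100a8 (0.566 TPM) are at their lowest among tumors outside the brain. The rows do not represent the full lists. Among these tumors, every pathway row but Irf8 is highest in 43998A, and every macrophage row but Cd68 is lowest there. Left out were Lyz2 and Mertk, lowest there, and Itgam, Cd14, Cd163 and Ms4a7, not lowest. Of the neutrophil markers only S100a8 and S100a9 are shown.

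The 73 pathway genes were listed with earlier results of these data known. On Ctsk their median slope was 0.09, against -0.02 over all genes, and 0 had a slope below 0 that passed (0.0235% of all genes). A slope above 0 passed for 13 of the 73, against 0.757% of all genes. By role these 13 were the ligand gene Tnfsf11 (0.57, adjusted p = 0.0252), the receptor Oscar (0.74, 0.000429) and the kinase Syk, the factors Jdp2, Spi1 and Prdm1, the calcineurin regulator Rcan1, the fusion and attachment genes Itgb3 (0.44, 0.0432), Mst1r and Tm4sf19 (0.68, 0.000809), and Clcn7 (0.17, 0.0479), Atp6v1b2 and Snx10 of acid secretion. On Mmp9, 9 of 73 had a slope above 0 that passed, where 0.287% of all genes did. Among the 9 were Tnfsf11 (0.68, 0.0165) and Oscar (0.74, 0.0171), and 0 of 16 acid secretion genes passed. Without 43998A none of these 9 passed on Mmp9, with adjusted p from 0.104 (Tnfsf11) to 0.251 (Jdp2), and with site as a covariate no gene did. Without 43998A, Oscar and Tm4sf19 still passed on Ctsk, while Tnfsf11 (adjusted p = 0.318), Itgb3 (0.438), Clcn7 (0.710), Mst1r and Spi1 did not. With site as a covariate, 4 of all genes passed on Ctsk, and 3 of these, the member Dcstamp included, had passed without it. Without 43998A, R26P123 and 43825B, 0 genes had a slope above 0 on Ctsk that passed. None of the 12 osteoblast and osteocyte markers had a slope above 0 that passed, and Alpl, an alkaline phosphatase of bone-forming cells, had a slope below 0 on Mmp9 (-0.70, adjusted p = 0.0174) that did not pass without 43998A (0.0691) or R26P115 (0.0700). Outside against within the brain, 3 of the 12 passed as higher, Runx2 (log2 fold change 3.65), Phex and Mepe, and 0 as lower. Phex was at 58.7 TPM in 43825B and 77.8 TPM in 43992A and at most 2.69 TPM in the other 9 tumors outside the brain. Mepe was at 0 in every intra-CNS tumor and at most 0.472 TPM outside. The osteoblast markers Sp7 (log2 fold change -1.32 in the same contrast), Ibsp (0.23) and Bglap (0.40) did not pass.

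Within the tumors outside the brain, the site was then compared. The 6 intracranial tumors had lower fitted levels than the 5 extracranial tumors, with log2 differences of -5.93 (SE 1.52) for Mmp9, -7.07 (1.68) for Ctsk, -4.95 for Acp5, -6.42 for Atp6v0d2, -8.49 for Dcstamp, -5.04 for Ocstamp, -2.82 for Nfatc1, -1.20 for Tnfrsf11a and -4.75 for Calcr. With the nose tumor 43990A as intracranial the difference of Calcr was 3.35. None of the 9 passed in edgeR (adjusted p from 0.345 to 0.448), where 1 of 21261 genes did (0.0047%). At an unadjusted p under 0.05 there were 8 of 9 members, against 12.3% of all genes, and DESeq2's Wald test passed 5 of 9 (Mmp9, Ctsk, Acp5, Atp6v0d2 and Nfatc1) among 490 genes. For no member was every extracranial tumor above every intracranial one, which 0.334% of all genes showed, because 43987A or 43990A was below the highest intracranial tumor for each member.

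The day of tamoxifen gave no difference that passed. The 3 tumors outside the brain with tamoxifen at E6 or E7 had 10.1 (29225D), 63.2 (R26P170) and 519 TPM (43825B) of Ctsk, within the 2.22 to 11043 TPM of the 8 tumors with E8. In edgeR 0 of 9 members passed (adjusted p from 0.908 to 0.965) and 0 of 21261 genes (0.0%), and at an unadjusted p under 0.05 there were 0 of 9 members and 747 genes (3.51%). DESeq2 passed 39 genes and 0 members.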

How the data were processed

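Stranded libraries of polyadenylated RNA from 16 tumors were sequenced from both ends. Reads were mapped to mm10 and counted with STAR 2.5.3a by the authors, who deposited raw gene counts, not normalized, and TPM. The gene annotation and the strand setting of counting are not given in the sources used here. There were 24982 genes with counts and 24951 with TPM, which sum to 1000000 in each tumor. Each column of both tables was mapped to a sample, and 0 were left unused.

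Groups followed the sample labels. Genes without a count in the tumors of a fit were left out, and counts of the others were tested with edgeR 4.0.16 (R 4.3.3) by glmQLFit and glmQLFTest after TMM scaling. Adjusted p-values are those of Benjamini and Hochberg over every gene of the fit. Genes passed at an adjusted p under 0.05, and in contrasts of groups also at an absolute log2 fold change above 1. Levels were log2(TPM + 1). A count of 3 was the floor. Alternatives were DESeq2 1.42.0, limma 3.58.1, DESeq2 size factors, filterByExpr, the scheme of mouse names or the site as covariate, other pseudocounts, tumors of E6 alone, 43990A as intracranial, and the omission of tumors. The code was tested on simulated data.

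The members and the gene lists were chosen with earlier results of these data known. Named were the members, Smarcb1, Myc, listed genes that passed a test or were set by name, and the 10 genes of highest correlation with Mmp9 and with Ctsk. Of the genes so chosen, 2 are not reported here. Acp5 and Nfatc1 overlap antisense genes that are not in the count table, and Calcr hosts Mir653 and Mir489. Each tumor is a different mouse, so p-values measure the spread between mice. Gene positions were taken from GENCODE (GRCm38) and promoters from RefSeq (GRCm38.p6).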

Additional observations from a re-analysis of the deposited data

Results flagged for a closer look

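Calcr in the nose tumor 43990A stood apart from the other 4 extracranial tumors. Its level there was 6.65 in log2(TPM + 1), or 99.1 TPM, and the gap to the next extracranial tumor was 0.786 of the range of the group, above the critical value of 0.71 of Dixon's test. This was 1 of 27 combinations of a member and a group that were examined, and chance gives such a gap in about 1 in 20 groups.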

How the results depend on the processing

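No paired analysis was possible because the tumors all come from different mice. Outside against within the brain, 5689 genes passed, with 3533 in tumors of E6 alone and 4766 to 6649 when 1 tumor was left out (6649 without R26P115). The share of higher calls was 50.3%, but 24.5% by limma and 62.8% in tumors of E6 alone. By site 1 gene passed, 490 by DESeq2 and 0 to 3 without 1 tumor. By day of tamoxifen 0 passed, 39 by DESeq2 and 0 to 1 without 1 tumor. On Mmp9 132 genes passed, with 1533 by DESeq2, 55 with filterByExpr, 0 by limma, 25 with the scheme of mouse names, 0 with site, 228 with log2(TPM + 0.1), 2 without 43998A, R26P123 and 43825B, and 3 (without 43998A) to 193 without 1 tumor. Leaving out any tumor other than 43989C and 29941C moved this count by over 1.5 times. On Ctsk 166 passed, with 1182 by DESeq2, 79 with filterByExpr, 24 by limma, 100 with the scheme of mouse names, 4 with site, 1 without the 3 tumors, and 41 (without 29941C) to 148 (without 43825B) without 1 tumor, and leaving out any tumor other than 43825B moved this count by over 1.5 times. The cause of these differences was not tested.

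Some values changed sign. Outside against within the brain, the log2 fold change of Calcr ran from -4.18 without 43990A to 0.97 without R26P98, that of Clcn7 was -0.049 by limma and that of Car2 -2.38 in tumors of E6 alone. By site, Calcr was at 3.35 with 43990A as intracranial. Without the 3 tumors the slope on Mmp9 was -0.090 for Acp5, -0.28 for Ocstamp, -0.011 for Nfatc1, -0.14 for Atp6v0d2, -0.062 for Tnfrsf11a and -0.049 for Oscar. The slope on Ctsk was then -0.030 for Nfatc1, -0.030 for Atp6v1b2, -0.034 for Clcn7 and 1.39 for Calcr. The correlation with Mmp9 was then -0.062 for Acp5, -0.041 for Ocstamp and -0.14 for Atp6v0d2, and that of Nfatc1 with Ctsk -0.086. Without 1 tumor the slope of Calcr ran from -0.70 to 0.16 on Mmp9 and from -0.31 to 0.12 on Ctsk, each highest without 43990A, and on Ctsk it was 0.026 by limma and 0.081 with the scheme of mouse names.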

Other observations

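The 2 tumors of highest Calcr were also the 2 of highest Sp7, a factor of bone-forming cells, a pattern noticed after the values were seen and not tested. Sp7 was at 247 TPM in the brain tumor R26P98 and at 136 TPM in the nose tumor 43990A, and in the other 14 tumors it ranged from 0.175 TPM (R26P170) to 102 TPM (R26P87), where Calcr was at 0.368 TPM. In R26P98 and 43990A Ctsk was at 2.45 and 27.4 TPM and Dcstamp at 0.162 and 0.533 TPM.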
